A study of Mus musculus with 27 samples.

Results

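Fibrotic-like assembloids are mouse liver cultures in which hepatocyte organoids (HepOrgs), cholangiocytes and an excess of portal mesenchymal cells are combined, and here the cultures kept for 2.5 weeks were compared with those kept for 1 week. The members were the libraries whose titles name a fibrosis-like assembloid at one of these times, 6 of 27 libraries in all, with 3 at each time. In the study's methods, each well of assembloids was started from 10 HepOrgs, 1000 cholangiocytes and 2500 portal mesenchymal cells. This is 10 times the mesenchymal number per well of the homeostatic assembloids of the same study. The cells were aggregated on a rocking platform, embedded in Matrigel and kept for 7 or 18 days in MM. This is a minimal medium with B27, N-acetylcysteine, Wnt-conditioned medium and the ROCK inhibitor Y-27632. As described in the methods, both groups share the starting cell numbers and the medium and differ in time, but the cell mixture was not recorded for each library. The labels give C57BL/6 mice, a wild-type genotype and primary cells. In the study's methods the mesenchymal cells generally carried a nuclear GFP under Pdgfra control and were sorted for it and for SCA1, and the cholangiocytes carried nuclear tdTomato. The model holds no endothelial or immune compartment. The labels do not say whether the libraries of a group came from separate cultures or animals, so the p-values measure only the spread between these libraries, which may be technical.

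In the periportal region of the liver, hepatocytes secrete bile into canaliculi that drain into ducts lined by cholangiocytes, and portal fibroblasts lie around those ducts. Hepatocytes also carry out ureagenesis, fatty acid oxidation, sterol and bile acid synthesis and the production of plasma proteins. In biliary fibrosis, portal fibroblasts expand and deposit collagen, and cholangiocytes and hepatocytes react to the altered surroundings.

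Poly(A) RNA was sequenced after SMARTseq2 amplification, and the deposited count of each gene was normalised here with edgeR's TMM method and is given as CPM, the counts of a gene scaled to a common library total. Total counts ranged from 38177578 to 65345685 at 1 week and from 32890407 to 59689299 at 2.5 weeks. Between 13499 and 14160 genes had at least 10 counts in a library, and mitochondrial genes took 1.45 to 2.25% of the counts.

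The cell type markers differed widely between the libraries of one time. The summed level of 10 hepatocyte markers was 28234, 33644 and 4459 CPM in replicates 1, 2 and 3 at 1 week and 72011, 17068 and 74384 CPM at 2.5 weeks. The summed level of 6 cholangiocyte markers was 1561, 484 and 6321 CPM at 1 week and 999, 6052 and 1201 CPM at 2.5 weeks. Replicate 3 at 1 week and replicate 2 at 2.5 weeks were thus the libraries highest in cholangiocyte markers and lowest in hepatocyte markers within their groups, and the groups overlapped for both cell types. Albumin (Alb), the main plasma protein of hepatocytes, was measured at 6318, 10470 and 837 CPM at 1 week and at 13230, 5006 and 20320 CPM at 2.5 weeks. Krt19, a keratin of cholangiocytes, was measured at 348, 107 and 1312 CPM at 1 week and at 277, 2343 and 261 CPM at 2.5 weeks. In bulk RNA, fewer cells of a type and less RNA of that type per cell cannot be told apart. Of 10 endothelial markers 9 were under 1 CPM in every library, as were 9 of 12 immune markers, and the summed levels reached 3.38 and 22.8 CPM.

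**Figure D1:**
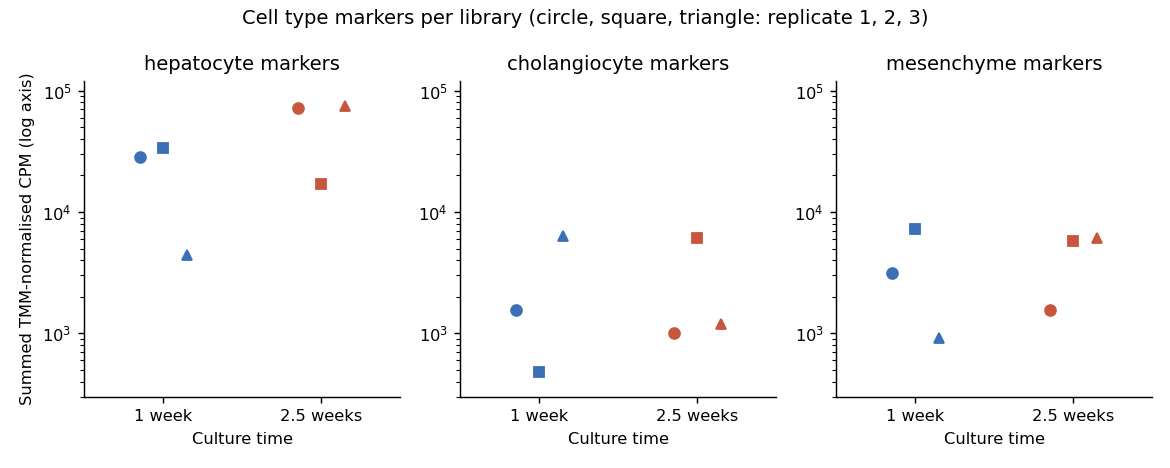
Summed TMM-normalised CPM of hepatocyte, cholangiocyte and mesenchyme markers (log axes) in each library, by culture time; circles, squares and triangles are replicates 1, 2 and 3. The triangle at 1 week and the square at 2.5 weeks are the libraries highest in cholangiocyte markers, at 6321 and 6052 CPM.

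Mesenchyme markers varied more within each time than between the times. The 9 markers summed to 3155, 7274 and 910 CPM at 1 week and to 1555, 5719 and 6052 CPM at 2.5 weeks. Pdgfrb, a receptor of mesenchymal cells, was measured at 32.7, 68.6 and 5.17 CPM at 1 week and at 32, 77.1 and 56.0 CPM at 2.5 weeks. The eGFP transcript was at 24.0, 81.7 and 769 CPM at 1 week and at 15.9, 52.1 and 236 CPM at 2.5 weeks, and Ly6a, which encodes the sort marker SCA1, was at 105, 166 and 590 CPM and then at 111, 290 and 314 CPM. In replicate 3 at 1 week both were thus at their highest while Pdgfrb was at its lowest. The tdTomato transcript was at 18.4, 2.23 and 9.23 CPM at 1 week and at 7.20, 42.2 and 105 CPM at 2.5 weeks. Reads of both reporters were thus present in all 6 libraries, which carry a wild-type label.

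The comparison asks which genes differ as fibrotic-like assembloids age from 1 to 2.5 weeks. The lists of sterol and fatty acid synthesis, interferon response and several hepatocyte functions had positive median log2 fold changes at 2.5 weeks, and the list of cell cycle genes had a negative one without any member at an unadjusted p under 0.05. No single gene passed the threshold in the fit of all 6 libraries. With edgeR's quasi-likelihood test, 0 of 13947 genes (0%) had a Benjamini-Hochberg adjusted p under 0.05, and the lowest adjusted p was 0.713. At an unadjusted p under 0.05, 815 genes were counted (5.84%), of which 517 were higher (3.71%) and 298 were lower (2.14%) at 2.5 weeks. DESeq2 placed 66 genes past 0.05 (0.473%), with 42 higher (0.301%) and 24 lower (0.172%), and limma voom with sample quality weights placed 2, Irf7 and Sult1a1 (0.0143%). Over all genes tested, the log2 fold changes had a median of −0.0017 and their standard errors (SE) a median of 0.37.

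The 2 libraries highest in cholangiocyte markers had a strong bearing on these counts. Without both of them, edgeR placed 398 of 14039 genes past 0.05 (2.83%), with 341 higher (2.43%) and 57 lower (0.406%), and DESeq2 placed 1713. These libraries were set aside after their values were seen and because of their marker levels, and the libraries that remain do not overlap in hepatocyte markers (28234 and 33644 CPM against 72011 and 74384 CPM), so time and hepatocyte content cannot be told apart in this smaller comparison. Leaving out either library alone gave 0 genes with edgeR, and with DESeq2 it gave 152 genes without replicate 3 at 1 week and 922 without replicate 2 at 2.5 weeks.

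**Figure D2:**
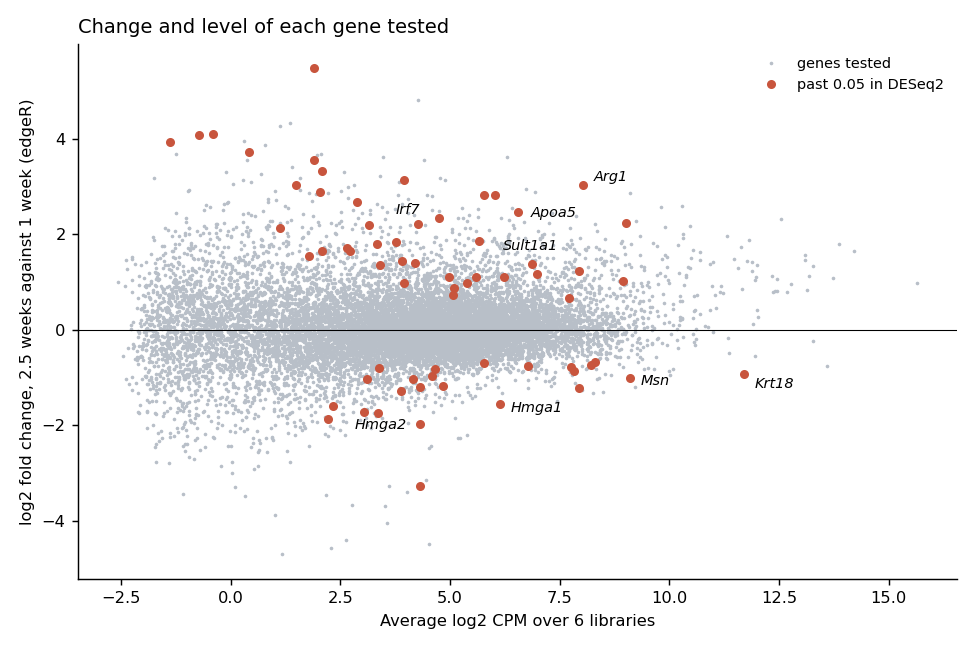
Each point is a gene tested, with its average log2 CPM over the 6 libraries (x) and its edgeR log2 fold change at 2.5 weeks against 1 week (y); the 66 genes past 0.05 in DESeq2 are in red. Irf7 and Apoa5 lie above a log2 fold change of 2, and Hmga1 and Hmga2 lie below −1.5.

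The genes with the lowest p that did not overlap between the times are described next, although none was past the edgeR threshold. No overlap at all was seen for 739 genes in the higher direction (5.3%) and for 930 in the lower direction (6.67%). Irf7, an interferon regulatory factor that drives type I interferon responses (chromosome 7, 140842619 to 140846398, minus strand, GRCm39), was measured at 9.01, 11.1 and 6.36 CPM at 1 week and at 46.5, 44.6 and 43.2 CPM at 2.5 weeks. Every library at 2.5 weeks lay far above every library at 1 week, with a log2 fold change of 2.34 (SE 0.26, n = 3 per group) and an adjusted p of 1.66e-11 in DESeq2. The cholangiocyte-rich library at 2.5 weeks lay between the other 2. Sult1a1, a phenol sulfotransferase (chromosome 7, 126271299 to 126275615, minus strand), was measured at 60.1, 67.8 and 68.1 CPM at 1 week and at 175, 162 and 170 CPM at 2.5 weeks. Its log2 fold change was 1.37 (SE 0.17), with a DESeq2 adjusted p of 1.22e-11.

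Dhrs3, a retinaldehyde reductase, was measured at 21.3, 14.1 and 29.7 CPM at 1 week and at 83.3, 79.2 and 73.6 CPM at 2.5 weeks, a log2 fold change of 1.86 (SE 0.29). Its groups did not overlap. Apoa5, an apolipoprotein that lowers plasma triglycerides, spread more widely at 2.5 weeks. It was at 31.3, 24.4 and 30.4 CPM at 1 week and at 255, 143 and 79.4 CPM at 2.5 weeks, a log2 fold change of 2.47 (SE 0.44). Arg1, the arginase of the urea cycle, was measured at 99.5, 36.6 and 36.2 CPM at 1 week and at 545, 149 and 713 CPM at 2.5 weeks. Its log2 fold change of 3.03 carried an SE of 0.71. Abcc3, a basolateral exporter of bile acids and conjugates, was measured at 159, 168 and 114 CPM at 1 week and at 400, 335 and 303 CPM at 2.5 weeks, a log2 fold change of 1.23 (SE 0.24). Pdk1, a kinase that restrains pyruvate dehydrogenase, had a log2 fold change of 1.09 (SE 0.19), and Gpi1, the glycolytic glucose-6-phosphate isomerase, one of 1.02 (SE 0.24). The other higher genes chosen by the same rule were Mvd, Rtp4, mt-Nd3, Rhpn2, Ppfibp2 and Gnmt, with log2 fold changes from 0.73 to 2.21.

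Among the genes that were lower at 2.5 weeks, Hmga1, a chromatin protein of proliferating and immature cells (chromosome 17, 27775449 to 27782648, plus strand), was measured at 106, 118 and 91.3 CPM at 1 week and at 32.6, 46.4 and 27.02 CPM at 2.5 weeks. Its log2 fold change was −1.57 (SE 0.25), with a DESeq2 adjusted p of 0.000138. Hmga2, a related chromatin protein found mainly in fetal and tumour tissue (chromosome 10, 120197173 to 120313095, minus strand), was measured at 26.5, 44.2 and 23.9 CPM at 1 week and at 11.6, 7.54 and 4.91 CPM at 2.5 weeks, a log2 fold change of −1.97 (SE 0.41). Suv39h1, a histone H3 lysine methyltransferase, was measured at 38.3, 42.5 and 38.4 CPM at 1 week and at 15.8, 15.9 and 21.1 CPM at 2.5 weeks, a log2 fold change of −1.18 (SE 0.20). The rule that chose these genes requires groups that do not overlap. Msn, which encodes the actin-linking protein moesin, was measured at 840, 749 and 621 CPM at 1 week and at 338, 399 and 364 CPM at 2.5 weeks, a log2 fold change of −1.005 (SE 0.24). Klf6, a transcription factor induced by injury, was at 348, 281 and 255 CPM and then at 158, 166 and 163 CPM, a log2 fold change of −0.86 (SE 0.20). Nox4, an NADPH oxidase that acts downstream of TGF-beta in fibroblasts, was measured at 20.0, 26.5 and 25.3 CPM at 1 week and at 12.9, 8.66 and 12.2 CPM at 2.5 weeks. Its log2 fold change was −1.08 (SE 0.25), and it missed 0.05 in DESeq2 (adjusted p = 0.0672). Phgdh, the first enzyme of serine synthesis, was at 273, 282 and 484 CPM and then at 125, 169 and 150 CPM, a log2 fold change of −1.23 (SE 0.30). The other lower genes chosen by the rule were Gimd1, Dlgap1, Rbm38, Kpnb1, Tmem63b, Ets1, Grip1 and Cenpt, with log2 fold changes from −1.51 to −0.70.

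**Figure D3:**
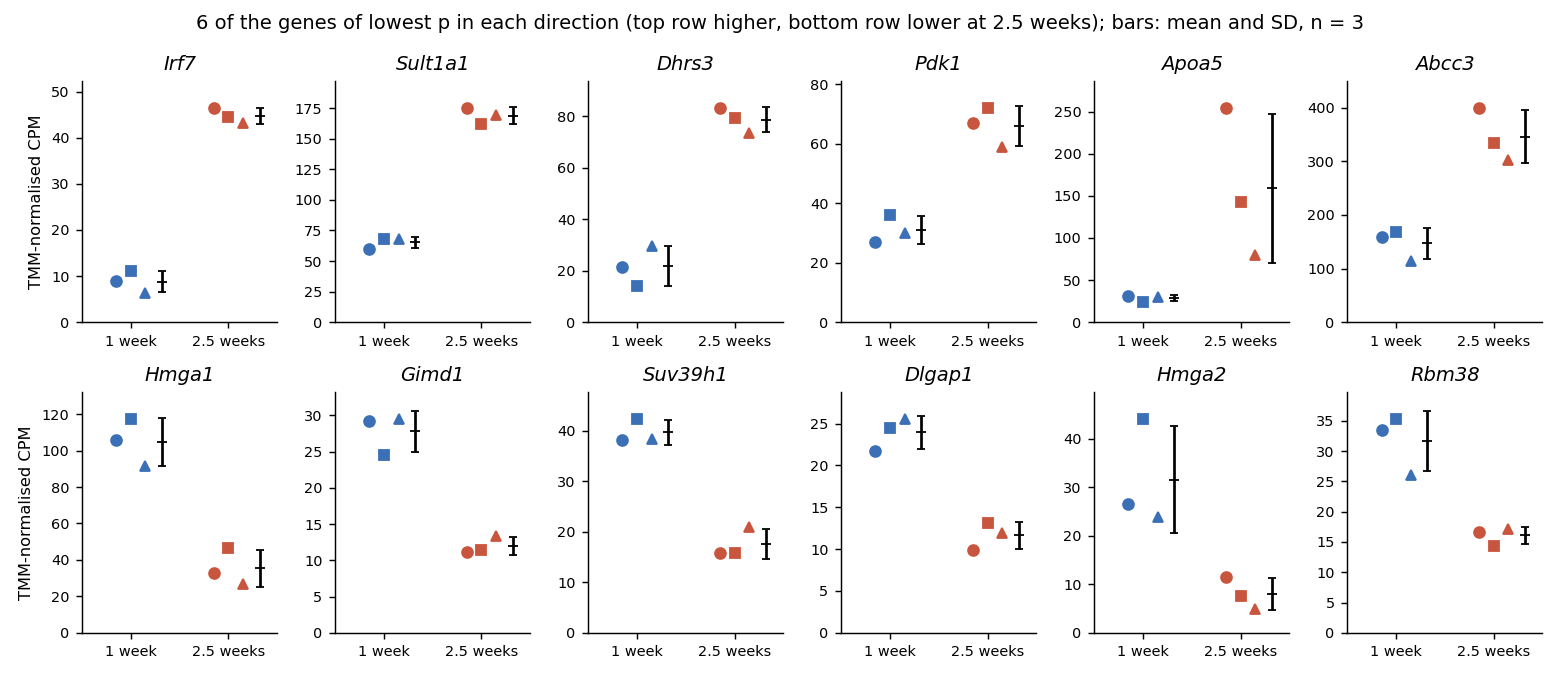
TMM-normalised CPM (axes from 0) in each library for 6 of the genes of lowest p in each direction; circles, squares and triangles are replicates 1, 2 and 3, and bars give the mean and SD of 3 libraries. Irf7 sits between 6.36 and 11.1 CPM at 1 week and between 43.2 and 46.5 CPM at 2.5 weeks, and Hmga1 sits between 91.3 and 118 CPM and then between 27.02 and 46.4 CPM.

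In the list of sterol and fatty acid synthesis genes, 0 of 25 members passed the edgeR threshold, and 2 passed it in DESeq2, among them Mvd. All 25 had a positive log2 fold change, against 49.9% of all genes, with a median of 0.91 against −0.0017 for all genes. An unadjusted p under 0.05 was reached by 14 of the 25, all higher, against 3.71% of all genes, and 12 of the 25 did not overlap between the times, against 5.3% of all genes in the higher direction. Mvd, a decarboxylase of the mevalonate pathway, was measured at 49.8, 45.0 and 47.6 CPM at 1 week and at 128, 98.2 and 79.4 CPM at 2.5 weeks, a log2 fold change of 1.10 (SE 0.22). Hmgcs1, which makes the precursor of mevalonate, was measured at 366, 278 and 328 CPM at 1 week and at 1155, 501 and 750 CPM at 2.5 weeks, a log2 fold change of 1.31 (SE 0.36). Insig1, the sterol-sensing brake on this pathway, was at 59.1, 82.0 and 43.6 CPM and then at 166, 102 and 143 CPM, a log2 fold change of 1.15 (SE 0.31). These 3 genes are taken from the 12 without overlap, so every library at 2.5 weeks, the cholangiocyte-rich one included, was above those at 1 week. The other members overlapped, among them Fasn, the fatty acid synthase, at 188, 207 and 147 CPM at 1 week and at 779, 152 and 574 CPM at 2.5 weeks. The groups of Fasn overlapped because replicate 2 at 2.5 weeks stayed within the range of the 1 week libraries. The summed level of the list overlapped too, at 11090, 13021 and 5127 CPM at 1 week and at 30276, 6887 and 16945 CPM at 2.5 weeks. In this sum replicate 2 at 2.5 weeks, the cholangiocyte-rich library, was below replicates 1 and 2 at 1 week. The list's median was 0.88 without replicate 3 at 1 week and 1.12 without replicate 2 at 2.5 weeks. On the log2(TPM + 1) scale, on which the median of all genes was −0.41, it was 0.31.

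In the list of interferon response genes, 0 of 17 tested members passed the edgeR threshold, and Irf7, Ifit1 and Ifit3 passed it in DESeq2. All 17 had a positive log2 fold change, against 49.9% of all genes, with a median of 0.76. An unadjusted p under 0.05 was reached by 6 of them, against 3.71% of all genes in the higher direction, and 5 did not overlap, against 5.3%. The list summed to 2761, 3297 and 1016 CPM at 1 week and to 4037, 2660 and 4279 CPM at 2.5 weeks, so the sums overlapped. This was the order of libraries of the summed hepatocyte markers at both times, and the part of hepatocyte content was not tested. The list's median was 0.52 without replicate 3 at 1 week. On the log2(TPM + 1) scale, on which the median of all genes was −0.41, it was 0.26. Ifit3, an effector of the antiviral state, was measured at 1.98, 2.15 and 1.74 CPM at 1 week and at 10.3, 4.64 and 22.9 CPM at 2.5 weeks, a log2 fold change of 2.66 (SE 0.60). Its relative Ifit1 was at 5.48, 3.49 and 4.58 CPM and then at 15.4, 8.34 and 23.5 CPM, a log2 fold change of 1.79 (SE 0.44). Irf9, a DNA-binding factor of interferon signalling, was at 41.9, 30.6 and 27.4 CPM and then at 49.4, 52.3 and 47.1 CPM, a log2 fold change of 0.57 (SE 0.21). Isg15, a ubiquitin-like modifier, was under 3 CPM in every library, and Tap1, a peptide transporter, had a log2 fold change of 0.26 (SE 0.23). That of Tap1 was −0.23 on the log2(TPM + 1) scale, on which the median of all genes was −0.41. Outside the list, Rtp4, a chaperone induced by interferon, had a log2 fold change of 1.11 (SE 0.22). It was picked by the rule that requires groups without overlap and takes the lowest p. The Ifit genes are close paralogs, and reads shared between them could have been divided by the counting.

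The promoters of Ifit1 and Ifit3 are shown because both genes passed 0.05 in DESeq2 and are classical interferon targets. Each sequence runs 5′ to 3′ on the gene's own strand from 250 bases before to 50 bases after the annotated start, from RefSeq on GRCm38.p6, and capitals mark matches to GAAANNGAAA, the core of the interferon-stimulated response element, here read on the opposite strand.
Ifit1 (chr19:34640639-34640938): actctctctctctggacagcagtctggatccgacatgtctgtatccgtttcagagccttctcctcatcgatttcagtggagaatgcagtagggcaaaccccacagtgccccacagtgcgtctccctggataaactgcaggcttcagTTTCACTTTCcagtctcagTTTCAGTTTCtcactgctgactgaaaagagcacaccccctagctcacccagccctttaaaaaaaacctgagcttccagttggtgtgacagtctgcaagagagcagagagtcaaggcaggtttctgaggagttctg
Ifit3 (chr19:34583279-34583578): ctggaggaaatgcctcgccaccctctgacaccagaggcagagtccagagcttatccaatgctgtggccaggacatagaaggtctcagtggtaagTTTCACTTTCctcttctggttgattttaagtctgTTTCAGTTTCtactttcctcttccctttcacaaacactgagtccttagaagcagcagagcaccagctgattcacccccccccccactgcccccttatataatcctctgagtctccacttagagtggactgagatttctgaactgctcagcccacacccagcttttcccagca
Both windows held 2 matches. Of the 18 listed interferon genes, 16 had a promoter in the table and 7 of these held a match on either strand, against 3.99% of the 27025 genes in the table. The window of Irf7 held no match to these letters. A match describes the sequence only.

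**Figure D4:**
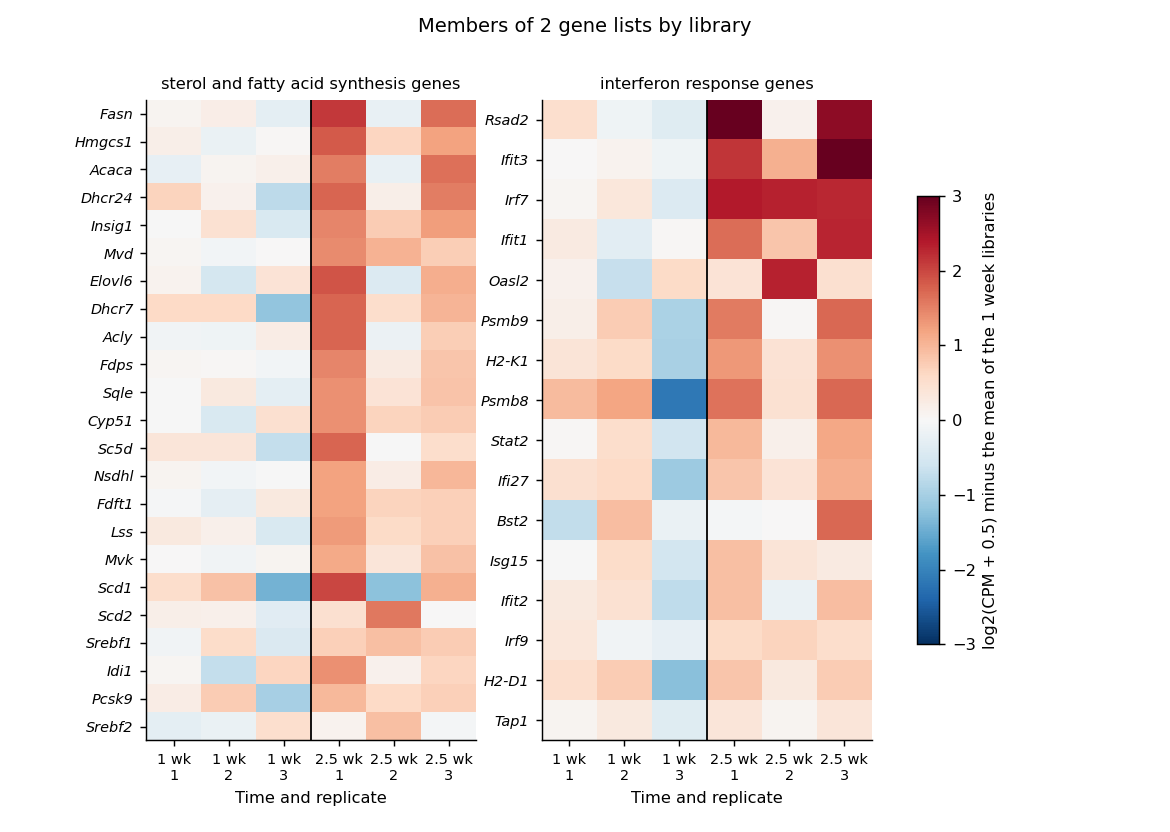
Log2(CPM + 0.5) of each library minus the mean of the 1 week libraries, for 23 of the sterol and fatty acid synthesis genes and 16 of the interferon response genes tested, ordered by log2 fold change; columns are time and replicate. Mvd and Irf7 are high in all 3 libraries at 2.5 weeks, whereas Fasn is high in replicates 1 and 3.

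Lists of hepatocyte functions had positive median log2 fold changes, mostly with overlapping groups. Their counts are read against 3.71% of all genes higher at an unadjusted p under 0.05, 2.14% lower, 5.3% higher without overlap and 6.67% lower without overlap. In the list of urea cycle and periportal genes, 0 of 15 passed the edgeR threshold and Arg1 passed it in DESeq2, with a median log2 fold change of 1.27, 15 of 15 positive, 5 at an unadjusted p under 0.05 (3.71% of all genes) and 4 without overlap (5.3% of all genes). Ass1, which makes argininosuccinate, was measured at 179, 189 and 51.7 CPM at 1 week and at 294, 185 and 219 CPM at 2.5 weeks, a log2 fold change of 0.74 (SE 0.49). Cps1, the entry enzyme of the urea cycle, reached at most 24.8 CPM and Otc, the next enzyme, at most 2.62 CPM. The 10 hepatocyte markers, for comparison, had a median log2 fold change of 1.15 with 0 of 10 past the threshold and 0 without overlap.

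In the list of fatty acid oxidation genes, 18 of 18 tested had a positive log2 fold change (median 1.04), 9 had an unadjusted p under 0.05, 2 did not overlap and 0 passed the threshold in edgeR or DESeq2. Cpt2, which imports fatty acids into mitochondria, did not overlap, at 67.1, 69.1 and 31.8 CPM and then at 155, 69.6 and 146 CPM. Acadl, a long-chain acyl-CoA dehydrogenase, did not overlap either, at 115, 120 and 125 CPM and then at 168, 155 and 165 CPM. Its log2 fold change was 0.44 (SE 0.16). On the log2(TPM + 1) scale, on which the median of all genes was −0.41, it was −0.075.

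In the list of bile acid synthesis genes, 13 of 13 were positive (median 1.23), 4 had an unadjusted p under 0.05, none lacked overlap and 0 passed the threshold with either tool. Nr1h4, the bile acid receptor FXR, was measured at 36.0, 32.5 and 26.7 CPM at 1 week and at 135, 32.9 and 153 CPM at 2.5 weeks. Canalicular and basolateral transporters had a median log2 fold change of 1.23, with 13 of 16 positive, 6 higher and 1 lower at an unadjusted p under 0.05, 3 higher and 1 lower without overlap, 0 past the edgeR threshold and 1, Abcc3, past it in DESeq2. Abcb11, the canalicular bile salt export pump, was at 12.7, 14.8 and 9.77 CPM and then at 71.0, 5.22 and 84.8 CPM. Abcb4, the phospholipid exporter MDR2, was at 84.4, 125 and 19.0 CPM and then at 216, 47.1 and 267 CPM, a log2 fold change of 1.22 (SE 0.82). For these pumps replicates 1 and 3 at 2.5 weeks exceeded every library at 1 week and replicate 2 did not. Abcc4, a basolateral exporter, went the other way, at 176, 163 and 146 CPM and then at 93.6, 113 and 81.2 CPM without overlap, a log2 fold change of −0.75 (SE 0.20). Atp8b1, a canalicular lipid flippase, was at 23.6, 24.8 and 28.5 CPM and then at 44.7, 38.2 and 54.9 CPM, a log2 fold change of 0.84 (SE 0.21).

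Cytochrome P450 genes had a median log2 fold change of 1.44 (16 of 18 positive, 3 higher at an unadjusted p under 0.05, 0 without overlap), and secreted plasma protein genes one of 1.15 (26 of 27 positive, 5 at an unadjusted p under 0.05, 0 without overlap). Genes of interleukin-6 signalling and the acute phase had a median of 1.33, with 17 of 17 positive, 3 at an unadjusted p under 0.05 and 1 without overlap. No member of these lists passed the threshold in edgeR or DESeq2. Orm2, an acute phase plasma glycoprotein, was measured at 565, 700 and 286 CPM at 1 week and at 3134, 575 and 3305 CPM at 2.5 weeks. Saa1, serum amyloid A, was at 609, 87.7 and 386 CPM and then at 3048, 127 and 3296 CPM, a log2 fold change of 2.58 (SE 1.20). Orm2 had the same order of libraries as the summed hepatocyte markers at both times. Saa1 had that order at 2.5 weeks but not at 1 week, where replicate 2, the library highest in hepatocyte markers, was the lowest. The part of hepatocyte content in these differences was not tested. Hamp, which encodes the iron hormone hepcidin, had 8, 6 and 7 counts at 1 week and 520, 227 and 46 counts at 2.5 weeks, and passed 0.05 in DESeq2 (adjusted p = 2.36e-06). Hamp has a close paralog, so its count is uncertain.

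**Figure D5:**
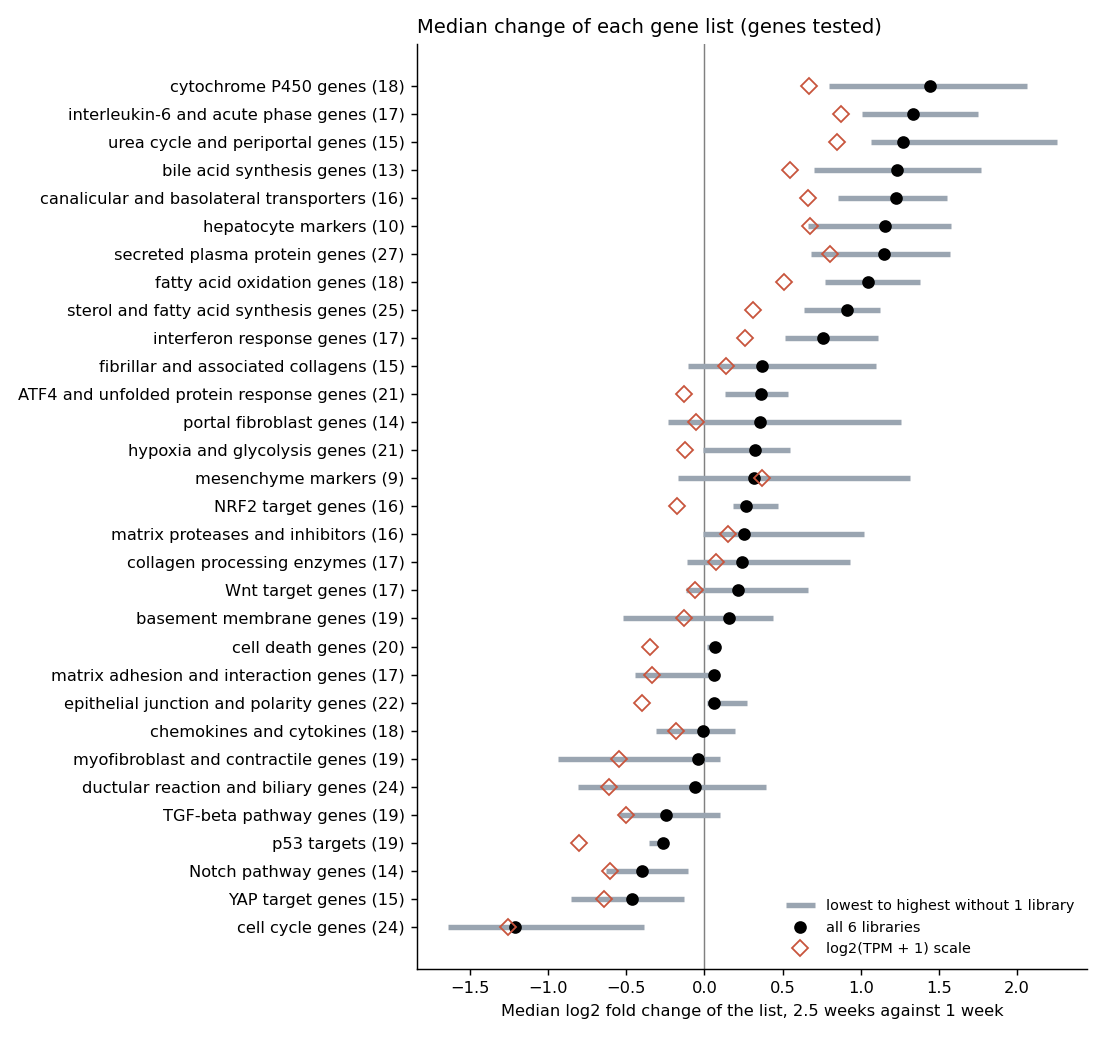
Median log2 fold change of each gene list with at least 9 genes tested (number in brackets) at 2.5 weeks against 1 week: black points for all 6 libraries, grey bars for the lowest to the highest median when 1 library is left out, and open diamonds on the log2(TPM + 1) scale, on which the median of all genes is −0.41. Metabolic hepatocyte lists stay above 0 throughout, collagen and mesenchyme lists cross 0, and cell cycle genes stay below 0.

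Collagen genes, whose products build the scar matrix in fibrosis, showed no difference beyond the spread between libraries. Of 15 fibrillar and associated collagens, 0 passed the threshold in edgeR or DESeq2, 0 had an unadjusted p under 0.05 and 0 lacked overlap, with a median log2 fold change of 0.37 that became −0.10 without replicate 3 at 1 week. Col1a1, the main chain of type I collagen, was measured at 901, 1794 and 83.6 CPM at 1 week and at 447, 1784 and 1534 CPM at 2.5 weeks, a log2 fold change of 0.44 (SE 1.01). Col3a1, the chain of type III collagen, was at 1035, 3261 and 122 CPM and then at 559, 2269 and 2681 CPM, a log2 fold change of 0.32 (SE 1.10). Without replicate 3 at 1 week these values became −0.10 for Col1a1 and −0.23 for Col3a1. The lowest collagen levels were those of replicate 3 at 1 week and, at 2.5 weeks, of replicate 1. With SEs near 1, a doubling or halving of collagen mRNA could not have been detected with these libraries.

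Matrix proteases and inhibitors had a median log2 fold change of 0.25, and collagen processing enzymes one of 0.24. Without replicate 3 at 1 week these medians were −0.0060 and −0.11. An unadjusted p under 0.05 was reached by 1 of 16 and 0 of 17 members, the 1 being higher, against 3.71% of all genes in that direction. Mmp15, a membrane-bound matrix metalloproteinase, was at 17.2, 20.1 and 19.4 CPM at 1 week and at 27.7, 62.3 and 45.1 CPM at 2.5 weeks without overlap, a log2 fold change of 1.25 (SE 0.31), and missed 0.05 in DESeq2 (adjusted p = 0.0672). Mmp3, stromelysin 1, was at 383, 645 and 148 CPM and then at 759, 635 and 1527 CPM, a log2 fold change of 1.31 (SE 0.61). Timp2, a metalloproteinase inhibitor, had a log2 fold change of 0.17 (SE 0.32). On the log2(TPM + 1) scale, on which the median of all genes was −0.41, it was −0.36. Myofibroblast and contractile genes had a median of −0.040 with 0 of 19 at an unadjusted p under 0.05, and genes of the TGF-beta pathway had a median of −0.24 with 0 of 19. Vim, the intermediate filament vimentin, was at 451, 607 and 35.2 CPM and then at 96.8, 252 and 106 CPM, a log2 fold change of −1.26 (SE 0.93). Its order of libraries was that of Col1a1 at both times, and the time effects of these genes were not tested against each other. Chemokines and cytokines had a median of −0.0067, with 2 higher and 1 lower of 18 at an unadjusted p under 0.05, against 3.71% and 2.14% of all genes.

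All 24 cell cycle genes had a negative log2 fold change, against 50.1% of all genes, with a median of −1.21, but 0 had an unadjusted p under 0.05, 0 lacked overlap and 0 passed in DESeq2. Mki67, a marker of cycling cells, was measured at 21.8, 3.55 and 69.6 CPM at 1 week and at 4.95, 19.8 and 6.62 CPM at 2.5 weeks. Rrm2, a subunit of ribonucleotide reductase, was at 77.2, 22.9 and 115 CPM and then at 26.9, 37.9 and 27.7 CPM. Replicate 3 at 1 week and replicate 2 at 2.5 weeks, the libraries highest in cholangiocyte markers, were also the highest of their groups for Mki67 and Rrm2, and the median was −0.39 without replicate 3 at 1 week. Among p53 targets, 2 of 19 had an unadjusted p under 0.05 and 4 did not overlap, all lower, against 2.14% and 6.67% of all genes in that direction. Mdm2, the negative regulator of p53, was at 226, 226 and 413 CPM and then at 162, 113 and 176 CPM, a log2 fold change of −0.94 (SE 0.33).

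Ductular and biliary genes were divided, with 12 of 24 higher and 12 lower and a median log2 fold change of −0.062 (2 higher and 2 lower at an unadjusted p under 0.05, against 3.71% and 2.14% of all genes, and 2 and 2 without overlap, against 5.3% and 6.67%). Krt18, a keratin of all liver epithelium, was measured at 4966, 3769 and 4359 CPM at 1 week and at 2256, 2650 and 1967 CPM at 2.5 weeks, a log2 fold change of −0.93 (SE 0.36) that passed 0.05 in DESeq2 (adjusted p = 0.0159). Sox4, a transcription factor of developing ducts, was at 107, 97.8 and 97.7 CPM and then at 37.8, 77.1 and 55.3 CPM, a log2 fold change of −0.83 (SE 0.28). Pigr, the epithelial receptor for polymeric immunoglobulin, was at 36.9, 4.42 and 6.94 CPM and then at 58.5, 101 and 90.3 CPM, a log2 fold change of 2.36 (SE 0.82), and did not overlap. Sox9 and Krt7, markers of cholangiocytes, had log2 fold changes of −0.11 (SE 0.43) and −0.87 (SE 1.17), and that of Krt7 was 1.17 without replicate 3 at 1 week. Of the YAP targets 14 of 15 and of the Notch pathway genes 12 of 14 had a negative log2 fold change, against 50.1% of all genes. Their medians were −0.46 and −0.40, and became −0.13 and −0.11 without replicate 3 at 1 week. An unadjusted p under 0.05 was reached by 1 and 0 members, against 2.14% of all genes in the lower direction.

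Homeostatic assembloids were started with 250 mesenchymal cells per well. To see whether the change with time differed from theirs, the difference of the 2 time effects was tested over the 12 assembloid libraries. With edgeR 0 of 14253 genes passed 0.05 (0%), the lowest adjusted p was 1, and 278 had an unadjusted p under 0.05 (1.95%). DESeq2 also placed 0 genes past 0.05, with 455 at an unadjusted p under 0.05. Replicate 2 of the homeostatic assembloids at 1 week stood apart, with 6623 genes at 10 counts or more against 12207 to 14160 in the other 11 libraries, and without it the count was again 0. Scaled over these 12 libraries, Irf7 was at 53.1, 12.3 and 39.2 CPM in homeostatic assembloids at 1 week and at 52.3, 35.1 and 121 CPM at 2.5 weeks, against 7.41, 9.33 and 5.23 CPM and then 38.6, 35.6 and 36.98 CPM in fibrotic-like assembloids. For Hmga2 the difference was 3.90 (SE 2.40), and the homeostatic library that stood apart held 205 CPM against at most 2.64 CPM in the other 5.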

How the data were processed

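RNA was extracted from assembloids, amplified by SMARTseq2 and sequenced as paired ends. The authors aligned reads to GRCm39 with STAR and counted them per gene with featureCounts, and the deposited counts are whole numbers, used here as deposited. The deposited TPM values were made by the authors with a gene length that is within 5% of the whole gene span for 80.8% of genes, and were used only for alternatives, on log2 scales with pseudocounts of 1 and 0.1. The library preparation is not stated to keep strand, so overlapping antisense genes cannot be told apart. Of 37 libraries in the table, 27 were mapped to samples by library name, and the other 10 were not used.

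The 6 libraries were fitted alone in R 4.3.3 with edgeR 4.0.16 (TMM scaling; filterByExpr keeping genes at 10 counts in enough libraries and 15 in total; quasi-likelihood test with prior count 2; Benjamini-Hochberg adjustment, threshold 0.05). The difference of time effects was fitted over the 12 assembloid libraries. The rows of eGFP and tdTomato stayed out of counts of genes. Alternatives were RLE size factors, DESeq2 1.42.0, 2 other filters on low counts, limma 3.58.1 on log2 TPM, a robust fit, voom with quality weights, a further limit of 1 on the size of the log2 fold change, the replicate number as a block, more libraries in the fit, and leaving out each replicate. The study's own tests used DESeq2.

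Named genes are members of the gene lists, genes named by the study, and, for each direction, up to 15 genes with the largest log2 fold change past the threshold, groups that do not overlap and a mean log2 CPM from 4 upwards, filled with those of lowest p, leaving out provisional names. Pigr and the other genes outside that ranking come from their lists, and Hamp was named from the DESeq2 calls after values were seen. The lists and the comparison were chosen with earlier results of these data known. The results of some genes are not reported here, though the genes stay in the fits and list counts. The procedure was tested on simulated data. The deposited lengths do not allow levels to be compared between genes. Gene coordinates come from GENCODE on GRCm39.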

Additional observations from a re-analysis of the deposited data

How the results depend on the processing

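The count of genes past the threshold for the time effect (0) was the same with RLE size factors, both other filters, both log2 TPM scales, the robust fit, the added limit of 1, 12 or 27 libraries in the fit, and without any 1 replicate in edgeR (0 to 0). It was 66 with DESeq2 (42 higher, 24 lower) and 2 with voom quality weights (2 higher). Chosen after seeing the data, leaving out the 2 libraries highest in cholangiocyte markers gave 398 with edgeR (341 higher, 57 lower) and 1713 with DESeq2 (1209 higher, 504 lower), and DESeq2 without 1 replicate gave 22 to 922 (16 to 651 higher, 6 to 271 lower). The lowest of these was without replicate 3 at 2.5 weeks (22) and the highest without replicate 2 at 2.5 weeks (922). The cause was not tested. Of the 66 DESeq2 calls, 8 were called in each of these 6 fits, among them Apoa5, Dhrs3, Gimd1, Hamp, Hmga1, Irf7 and Sult1a1. The difference of time effects gave 0 genes in all its alternatives.

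With the replicate number as a block, 0 genes passed the threshold and 322 had an unadjusted p under 0.05, against 815. The meaning of the numbers is not given in the labels. Deviations of same-numbered libraries from their group means correlated at 0.228, −0.28 and −0.179. With so few libraries per group, these values cannot decide whether same-numbered libraries shared a preparation. At an unadjusted p under 0.05, the log2(TPM + 1) scale gave 82 higher and 451 lower genes, against 517 and 298. Medians of 22 of 37 gene lists changed sign in at least 1 alternative, and 15 kept it in all. These alternatives include both log2 TPM scales, on which the median of all genes is itself negative. Collagen, mesenchyme and cholangiocyte lists were among the 22. The smallest library held 32890407 counts on genes.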

Other observations

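Ratios of counts within a library, chosen after the values were seen, do not depend on scaling between libraries. Of the 8 such ratios reported here, 0 kept the times apart, which does not cover ratios of the genes left out, and the smallest p that 3 against 3 libraries allow is 0.1. Arg1 stood at 15.8, 3.49 and 43.2 counts per 1000 Alb counts at 1 week and at 41.2, 29.8 and 35.1 at 2.5 weeks (exact permutation p = 0.4), so relative to Alb the library at 1 week with the fewest hepatocyte markers was the highest. Col1a1 stood at 27.6, 26.2 and 16.2 counts per Pdgfrb count at 1 week and at 14.0, 23.2 and 27.4 at 2.5 weeks (exact permutation p = 0.6).

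Mesothelial markers were highest in the same libraries as the cholangiocyte markers, with and without Krt19, which both lists hold. They summed to 450, 214 and 4204 CPM at 1 week and to 585, 3453 and 601 CPM at 2.5 weeks. Without Krt19 the 7 other markers summed to 102, 107 and 2892 CPM and then to 308, 1110 and 339 CPM.

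Genes that passed 0.05 in DESeq2 outside the lists included 2 more interferon-linked genes and Tead2, named after their values were seen. Oasl1 was at 7.89, 6.64 and 3.30 CPM at 1 week and at 24.3, 19.9 and 19.5 CPM at 2.5 weeks, and Oas3 was at 0.817, 0.438 and 0.453 CPM and then at 1.38, 10.7 and 2.81 CPM. Tead2, a partner of YAP, was at 20.8, 22.6 and 19.5 CPM and then at 6.45, 11.3 and 8.09 CPM. Hypoxia and glycolysis genes had a median log2 fold change of 0.32, with 19 of 21 positive, against 49.9% of all genes. In DESeq2 2 of them, Gpi1 and Pdk1, were past 0.05, against 0.473% of all genes. The list's median was −0.010 without replicate 2 at 2.5 weeks. On the log2(TPM + 1) scale, on which the median of all genes was −0.41, it was −0.12. Junction and polarity genes were evenly divided, with 11 of 22 higher and 11 lower and a median log2 fold change of 0.058. Of the 22, 4 were higher at an unadjusted p under 0.05, against 3.71% of all genes, and 0 were lower. Among the 4 was Ceacam1, at 30.7, 22.5 and 10.5 CPM and then at 62.9, 65.3 and 59.3 CPM. Genes of the ATF4 and unfolded protein responses had a median of 0.36, NRF2 targets one of 0.27, Wnt targets one of 0.21 and cell death genes one of 0.066, and Phgdh was the single member of these lists past 0.05 in DESeq2. Each of these medians changed sign in at least 1 alternative, that of the Wnt targets in 11. Of 20 cell death genes tested, 4 were lower and 0 higher without overlap, against 6.67% and 5.3% of all genes.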
